A study of Mus musculus with 6 samples.

Results

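The 10 genes described here encode enzymes that make pyrimidine nucleotides and deoxynucleotides: Cad, Dhodh, Umps, Ctps, Uck2, Tk1, Dck, Rrm1, Rrm2 and Tyms. They were taken by gene symbol from the 47480 genes of the deposited table, all 10 were found, and all 10 passed the filter on low values. The set was selected on these FPKM values in part, because Ctps and Rrm2 are higher in the knockout libraries. The difference between genotypes is therefore a description for the members. They were in the fit over all genes, and how many fell below its threshold is printed as a count that supports nothing. RNA was sequenced from primary chondrocytes, the cells of cartilage, of neonatal mice. Wild-type (WT) C57BL/6 mice were compared with adenosine receptor knockout mice bred on that background (A2ARKO, the gene Adora2a), to look for drivers of osteoarthritis. Each library pools the cells of 1 whole litter, with 3 litters per genotype, so a replicate is a litter pool and not an animal. Both lines were kept in 1 facility on the same food, and the cells were trypsinized before extraction. Exact age, litter size and time in culture are not given in the labels.

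Pyrimidine nucleotides are built in steps. Cad, a single protein with several enzyme activities, starts the ring from glutamine, bicarbonate and aspartate, Dhodh oxidizes the ring in the inner mitochondrial membrane, and Umps finishes uridine monophosphate. CTP synthase (Ctps) then turns UTP into CTP, which is needed for RNA, DNA and phospholipid synthesis, while UTP also feeds the UDP-sugars from which cartilage glycosaminoglycans are made. Ribonucleotide reductase, made of the large subunit Rrm1 and the small subunit Rrm2, converts ribonucleotides into deoxynucleotides, and thymidylate synthase (Tyms) makes the thymidine nucleotide that only DNA uses. Uck2, Tk1 and Dck salvage nucleosides by adding a phosphate to uridine and cytidine, to thymidine, and to deoxycytidine and deoxypurine nucleosides. Several of these genes, among them Rrm2, Tyms and Tk1, are known to be transcribed mainly in cells that copy their DNA.

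The libraries differed in ways that the genotype labels do not give. The summed level of 10 chondrocyte marker genes was 25100 FPKM (fragments per kilobase of gene, scaled to the mapped fragments of a library) in WT replicate 1 against 1326 and 483.8 in WT replicates 2 and 3, and 2201 to 6137 in A2ARKO. The cartilage collagen gene Col2a1 ranged from 184.58 to 18662.37 FPKM over the WT libraries and from 1362.74 to 3886.55 over the A2ARKO libraries, so this defining marker was detected in all 6 libraries at very unequal levels. WT replicate 2 stood apart in the summed level of 12 macrophage and leukocyte markers (1944 FPKM against 135.0 and 186.4 in the other WT libraries and 26.6 to 53.65 in A2ARKO) and of 10 skeletal muscle markers (1317 FPKM against 8.32 to 33.5 elsewhere). The sum of 10 fibroblast and perichondrial markers was 7696 to 14080 FPKM in WT and 4711 to 5788 in A2ARKO. No erythroid marker reached 1 FPKM in any library, and 6 of 8 endothelial markers did not. Their part in the results below was not tested, and each member is given with the range of its difference when any 1 library is left out. Adora2a, the deleted gene, averaged 6.71 ± 2.995 FPKM in WT and 0.537 ± 0.125 in A2ARKO (SD, n = 3), with no overlap (limma adjusted p = 0.0203). With 1 library left out the adjusted p ran from 0.00999 to 0.0955, and it missed 0.05 without WT replicate 2 and without any of the 3 A2ARKO libraries. An exact permutation test, two-sided, reached p = 0.1, which is the lowest value possible with 3 libraries on each side.

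Ctps and Rrm2 had the largest differences of the 10. By FPKM, both overlapped Rrm1, the member of highest mean, in WT libraries, and both were above every other member in A2ARKO libraries. Ctps averaged 29.28 ± 1.83 FPKM in WT and 94.23 ± 1.35 in A2ARKO, and Rrm2 averaged 24.11 ± 8.07 and 106.0 ± 13.3 (SD, n = 3). Cad, Umps, Dck, Tyms, Tk1 and Rrm1 were higher in every A2ARKO library than in any WT library, by 1.38- to 1.92-fold in the means, while Dhodh and Uck2 overlapped between the genotypes. In all, 8 of 10 members had no overlap between the groups, all of them higher in A2ARKO, where 18.0% of the 11595 genes tested did so and 32.9% had no overlap in either direction. Ctps and Rrm2 are the 2 of 10 members below a limma adjusted p of 0.05, where 5.08% of all genes tested were (3.31% higher and 1.77% lower). With any 1 A2ARKO library left out Ctps alone was below it, and with a replicate block neither was. Nothing is read from these counts because this contrast chose the members. Of the genes called, 65.2% were higher, against 51.1% with the libraries rescaled to the same sum and 53.8% with quantile normalization. These are bulk libraries, in which fewer cells of a type and less RNA per cell cannot be told apart.

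**Figure D1:**
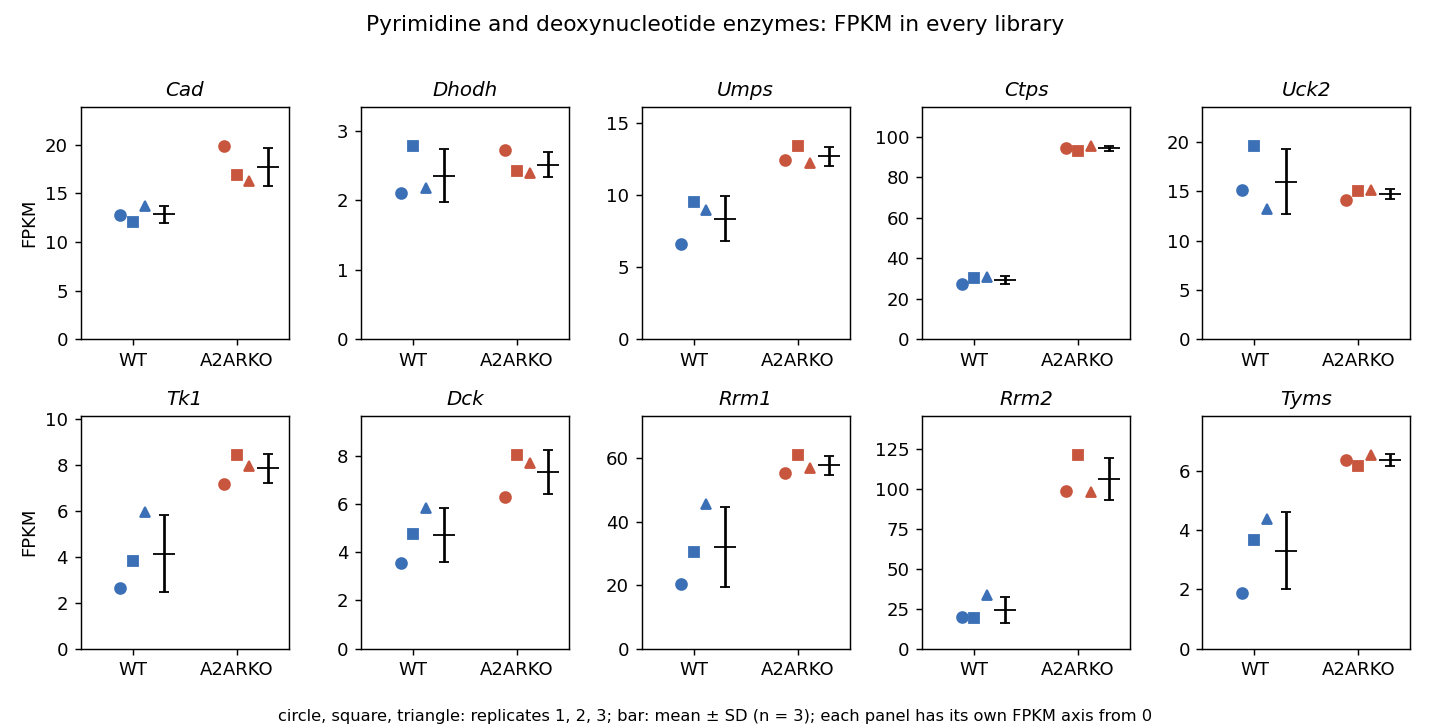
FPKM of each of the 10 members in the 3 WT (blue) and 3 A2ARKO (red) libraries, with circle, square and triangle for replicates 1, 2 and 3 and a black bar for the mean ± SD (n = 3). Each panel has its own axis from 0. The A2ARKO points of Ctps (92.88 to 95.57) and Rrm2 (98.31 to 121.35) lie far above the WT points, and those of Dhodh and Uck2 overlap them.

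The first steps of the pathway had smaller differences than Ctps. Cad (chromosome 5, 31054780 to 31078479, plus strand) read 12.78, 12.03 and 13.69 FPKM in WT replicates 1, 2 and 3 and 19.92, 16.93 and 16.26 in A2ARKO replicates 1, 2 and 3. The groups did not overlap, the means differed 1.38-fold, and the log2 fold change of FPKM + 1 (A2ARKO minus WT, which understates the change of low genes) was 0.43 with a standard error of 0.10. Without any 1 library it lay between 0.35 and 0.49.

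Dhodh (chromosome 8, 109591343 to 109608673, minus strand) was the least abundant of the 10 in both genotypes by its mean, with 2.10, 2.79 and 2.18 FPKM in WT and 2.72, 2.43 and 2.39 in A2ARKO. The highest library of all was a WT library, and the log2 fold change came to 0.07 (standard error 0.11, and 0.02 to 0.16 without any 1 library). With the libraries rescaled to the same sum the value for Dhodh was -0.02, so its sign depends on the scaling. Umps (chromosome 16, 33954782 to 33967038, minus strand), which completes uridine monophosphate, read 6.63, 9.56 and 8.97 FPKM in WT and 12.44, 13.46 and 12.25 in A2ARKO, 1.52-fold higher in the means with no overlap. Its log2 fold change came to 0.56 (standard error 0.14), and 0.42 to 0.65 without any 1 library.

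Ctps lies on mm10 chromosome 4 (120539868 to 120570276, minus strand). It read 27.2, 29.99 and 30.65 FPKM in WT and 94.25, 92.88 and 95.57 in A2ARKO. The libraries of each genotype were close together, and even the lowest A2ARKO library was 3.03 times the highest WT library. Its highest WT library was 1.13 times the lowest and its highest A2ARKO library 1.03 times the lowest, the narrowest spread of the 10 members in each genotype. The means differed 3.22-fold, and the log2 fold change came to 1.65 (standard error 0.09). It lay between 1.6 and 1.69 without any 1 library and was 1.54 when the libraries were rescaled to the same sum.

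Ctps2, the second CTP synthase gene, was not among the members and can be tested. It averaged 9.12 ± 1.66 FPKM in WT and 13.12 ± 0.458 in A2ARKO (SD, n = 3). Every A2ARKO library was above every WT library, as for 18.0% of the genes tested. The log2 fold change of Ctps2, 0.49, did not pass (limma adjusted p = 0.0936, and 0.058 to 0.295 with any 1 library left out). Within a library, Ctps was 3.77, 2.91 and 3.11 times as abundant as Ctps2 per kilobase in WT and 7.43, 6.83 and 7.32 times in A2ARKO. The ratio was thus higher in every A2ARKO library, by 1.15 on the log2 scale, and it does not depend on how a library is scaled.

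Rrm1 and Rrm2, the subunits of ribonucleotide reductase, were both higher in A2ARKO but by different amounts. Rrm1 (chromosome 7, 102441695 to 102469771, plus strand) read 20.38, 30.41 and 45.45 FPKM in WT and 55.35, 61.06 and 56.80 in A2ARKO. Its WT libraries were far apart, with the highest 2.23 times the lowest, and the A2ARKO libraries were close together above them. The means differed 1.80-fold, and the log2 fold change came to 0.90 (standard error 0.27, and 0.62 to 1.18 without any 1 library).

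Rrm2 (chromosome 12, 24708241 to 24714146, plus strand) read 19.72, 19.18 and 33.42 FPKM in WT and 98.42, 121.35 and 98.31 in A2ARKO. WT replicate 3 was the highest of its group, and the lowest A2ARKO library was still 2.94 times that library. The means differed 4.40-fold, and the log2 fold change, 2.13 with a standard error of 0.23, lay between 2.0 and 2.38 without any 1 library.

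The ratio of Rrm2 to Rrm1 per kilobase was 0.968, 0.631 and 0.735 in WT and 1.78, 1.99 and 1.73 in A2ARKO. By these values the small subunit was below the large one in every WT library and above it in every A2ARKO library. The ratio differed by 1.26 on the log2 scale with a pooled SD of 0.23. Which subunit is higher depends on the gene lengths behind the FPKM, which are not given, while the difference between genotypes does not. Rrm2b, the alternative small subunit that is known as a p53 target and serves cells outside S phase, is not a member and was tested. It read 1.19, 1.13 and 1.81 FPKM in WT and 1.33, 1.33 and 1.39 in A2ARKO, and its log2 fold change of 0.00 (standard error 0.13) did not pass (limma adjusted p = 0.99). Rrm2 was 16.6, 17.0 and 18.5 times as abundant as Rrm2b in WT and 74.0, 91.2 and 70.7 times in A2ARKO. The WT values of this ratio were close together although WT replicate 3 was high in both genes.

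**Figure D2:**
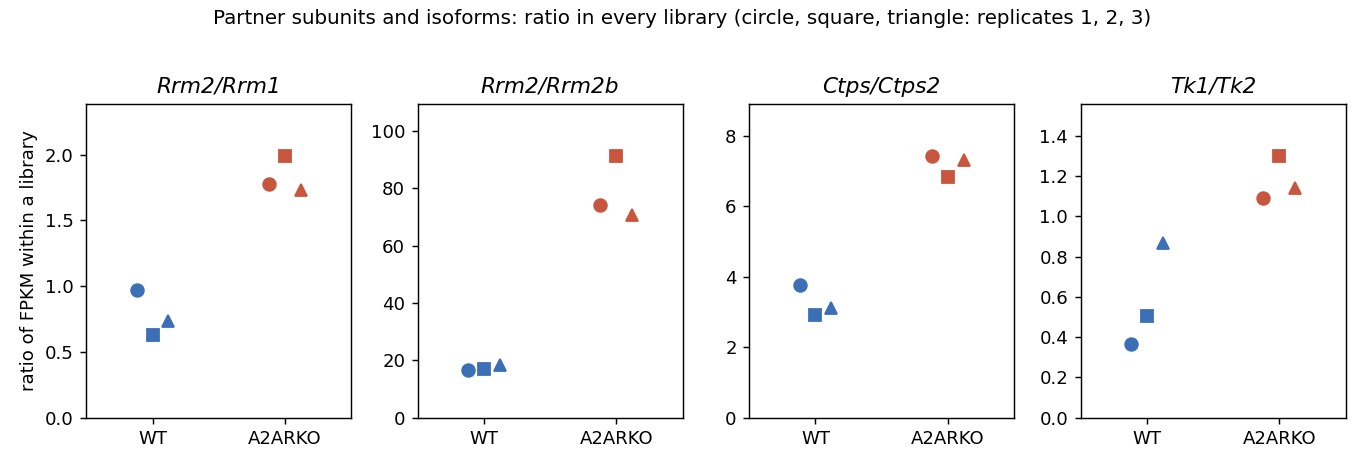
Ratio of FPKM between partner genes within each library, for the 3 WT (blue) and 3 A2ARKO (red) libraries, on linear axes from 0. Every A2ARKO point is above every WT point in all 4 panels, and Rrm2/Rrm1 passes from 0.631 to 0.968 in WT to 1.73 to 1.99 in A2ARKO.

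The sequences before the transcription starts of Rrm2 and Ctps, the members with the largest differences, and of Rrm1, the partner of Rrm2, are shown to set the letters before these genes beside each other. Each is the 250 bases upstream of the RefSeq start on GRCm38.p6 (the assembly named mm10; for Rrm2 that start lies 13 bases inside the GENCODE gene), at chr12:24708004-24708253 (plus strand), chr4:120570277-120570526 (minus strand) and chr7:102441445-102441694 (plus strand), written 5′ to 3′ along the gene. Capitals mark matches on either strand to 4 E2F-type words, which are TTCCCGC with its variants TTGGCGC, or TTCGCGC, or TTGCCGC, and to the CCAAT box, the E-box with letters CACGTG, and the GC box with letters GGGCGG. No marked matches of different motifs overlap in these windows.
Rrm2: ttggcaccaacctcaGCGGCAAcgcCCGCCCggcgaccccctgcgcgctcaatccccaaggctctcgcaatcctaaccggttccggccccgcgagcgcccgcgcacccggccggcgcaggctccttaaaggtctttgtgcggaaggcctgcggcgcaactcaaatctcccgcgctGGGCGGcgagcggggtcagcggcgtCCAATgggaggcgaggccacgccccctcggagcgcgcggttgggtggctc
Ctps: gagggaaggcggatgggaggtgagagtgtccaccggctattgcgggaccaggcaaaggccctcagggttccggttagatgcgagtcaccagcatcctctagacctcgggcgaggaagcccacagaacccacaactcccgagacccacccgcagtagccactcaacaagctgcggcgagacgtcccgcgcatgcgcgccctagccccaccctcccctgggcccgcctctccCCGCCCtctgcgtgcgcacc
Rrm1: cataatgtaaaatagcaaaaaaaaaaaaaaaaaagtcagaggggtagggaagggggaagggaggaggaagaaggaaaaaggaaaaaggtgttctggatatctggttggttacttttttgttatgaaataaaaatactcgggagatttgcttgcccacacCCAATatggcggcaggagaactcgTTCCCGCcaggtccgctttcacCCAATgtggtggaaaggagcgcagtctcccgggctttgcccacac

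Rrm2 and Rrm1 each hold an E2F-type word, 235 and 67 bases before the start, and each holds the CCAAT box, once in Rrm2 and at 2 places in Rrm1. The window of Ctps holds a GC box and none of the other 3 motifs. Of the 9 members with a RefSeq promoter, 2 hold an E2F-type word, 2 a CCAAT box, 1 an E-box (Tyms) and 8 a GC box. Of the first listed promoters of 8734 tested genes, 14.7%, 36.7%, 8.66% and 62.1% do. A match is a description of the letters, and the words were chosen after the sequences had been seen. The promoter of Dhodh was not used here.

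Tyms (chromosome 5, 30058202 to 30073617, minus strand), which makes thymidylate, read 1.87, 3.66 and 4.38 FPKM in WT and 6.38, 6.15 and 6.54 in A2ARKO. It had the widest spread of the 10 over the WT libraries, 2.34-fold, against 1.06-fold in A2ARKO. The means differed 1.92-fold, and the log2 fold change came to 0.82 (standard error 0.23). It ranged from 0.55 without WT replicate 1, its lowest library, to 1.01. Reads of Tyms and of its processed pseudogene Tyms-ps may not be told apart, so its level is uncertain.

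The thymidine kinase gene Tk1 (chromosome 11, 117815526 to 117826092, minus strand) read 2.64, 3.82 and 5.94 FPKM in WT and 7.18, 8.45 and 7.96 in A2ARKO. The groups did not overlap, and the log2 fold change came to 0.84 (standard error 0.23, and 0.61 to 1.08 without any 1 library). Its mitochondrial counterpart Tk2, which is not a member, averaged 7.22 ± 0.370 FPKM in WT and 6.69 ± 0.272 in A2ARKO (SD, n = 3), and its log2 fold change of -0.10 did not pass (limma adjusted p = 0.503). The ratio of Tk1 to Tk2 was 0.365, 0.504 and 0.868 in WT and 1.09, 1.3 and 1.14 in A2ARKO. It was thus higher in every A2ARKO library. Which gene of the pair is higher depends on gene lengths that are not given. Exons of Tk1 overlap those of Afmid on the other strand, which averaged 0.46 FPKM in WT and 0.593 in A2ARKO, well below Tk1.

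Of the other salvage kinases, Dck (chromosome 5, 88764996 to 88783281, plus strand) read 3.57, 4.75 and 5.84 FPKM in WT and 6.32, 8.06 and 7.70 in A2ARKO. The groups were close, with the lowest A2ARKO library 1.08 times the highest WT library, and the log2 fold change came to 0.56 (standard error 0.17, and 0.41 to 0.70 without any 1 library). Uck2 (chromosome 1, 167222883 to 167285320, minus strand), which salvages uridine and cytidine, read 15.11, 19.66 and 13.24 FPKM in WT and 14.14, 15.00 and 15.10 in A2ARKO. It was the only member with a lower mean in A2ARKO, and its log2 fold change of -0.09 (standard error 0.15) lay between -0.21 and 0.06 without any 1 library, so it has no settled sign. WT replicate 2 was its highest library.

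**Figure D3:**
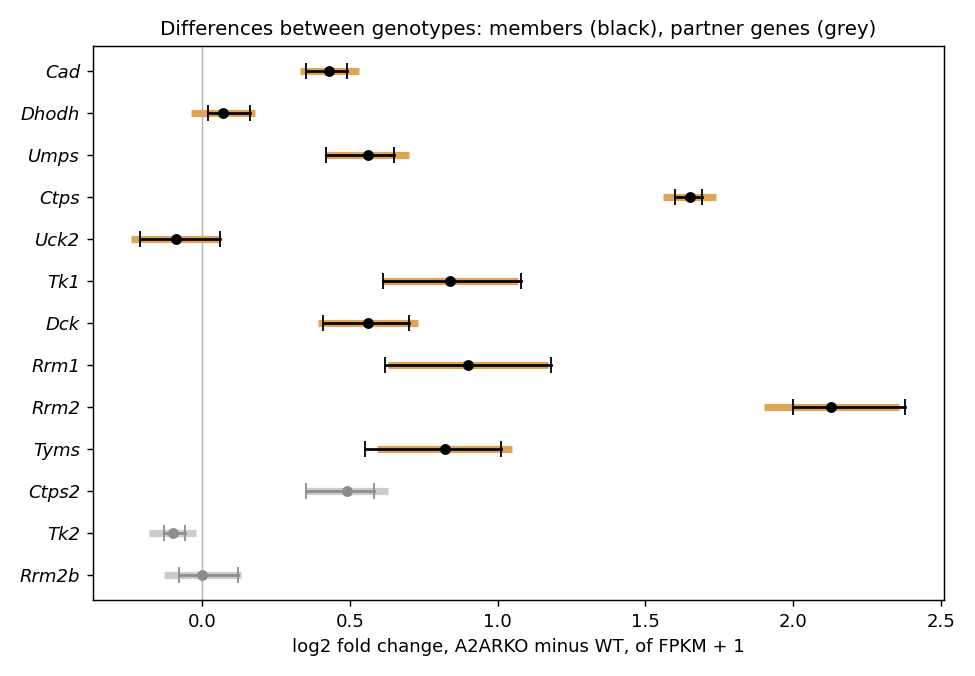
Log2 fold change of FPKM + 1 (A2ARKO minus WT, horizontal axis) of the 10 members in black and of their partner genes Ctps2, Tk2 and Rrm2b in grey. Dots are the values over 6 libraries, wide pale bars ± 1 standard error, and thin bars with end marks the range when each library is left out in turn. Ctps (1.65) and Rrm2 (2.13) lie to the right of all others, whose values run from -0.10 to 0.90.

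The order of the members by level changed with these differences, and it rests on gene lengths behind the FPKM that are not given. In WT the order from the highest mean was Rrm1, Ctps, Rrm2, Uck2, Cad, Umps, Dck, Tk1, Tyms and Dhodh. In their ranges over libraries, 7 of 9 neighbouring pairs in this order overlapped, all except Cad against Umps and Umps against Dck. Genes were not compared library by library here. In A2ARKO the order was Rrm2, Ctps, Rrm1, Cad, Uck2, Umps, Tk1, Dck, Tyms and Dhodh, and 2 of 9 pairs overlapped, Tk1 against Dck and Dck against Tyms (4 of 9 when the libraries were rescaled to the same sum). Estimated reads behind a member ran from 474 for Tyms in WT replicate 1 to 39066 for Rrm1 in A2ARKO replicate 2, which gives a counting error of 4.59% to 0.506%, below the spread between WT libraries for all 10 members.

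Across libraries, the members lay near the genes of the cell cycle to different degrees. For 30 genes of DNA replication and S phase entry, the stage in which DNA is copied, the median log2(FPKM + 1) was 2.59, 3.07 and 3.07 in WT and 3.64, 3.69 and 3.64 in A2ARKO. For 20 genes of mitosis and G2 it was 2.67, 3.04 and 3.95 in WT and 3.88, 4.01 and 4.02 in A2ARKO. WT replicate 1 held the lowest WT value of all 30 S phase genes, of 19 of the 20 mitosis genes and of 7 of the 10 members. WT replicate 3 held the highest for 19 of the 30, all 20 and 7 of the 10.

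With the S phase median of each library taken off, an alternative chosen after seeing the data, Rrm1, Tyms and Tk1 differed between the genotypes by 0.15, 0.07 and 0.09 on the log2 scale and overlapped. Rrm2 differed by 1.38 (pooled SD 0.30) and Ctps by 0.91 (pooled SD 0.14), each higher in every A2ARKO library. Both genes were selected for being higher in A2ARKO, so nothing is read from what remains of their differences. Cad and Dck overlapped at -0.32 and -0.19. On this scale Umps, Dhodh and Uck2 were lower in every A2ARKO library, by -0.19, -0.68 and -0.84. The S phase median was higher in every A2ARKO library than in any WT library. A gene with little difference by FPKM, as Dhodh and Uck2 were, therefore comes out lower on this scale. How many of all genes tested do so was not counted. All values on this scale are levels relative to replication genes, and whether the shares of dividing cells differ was not tested.

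**Figure D4:**
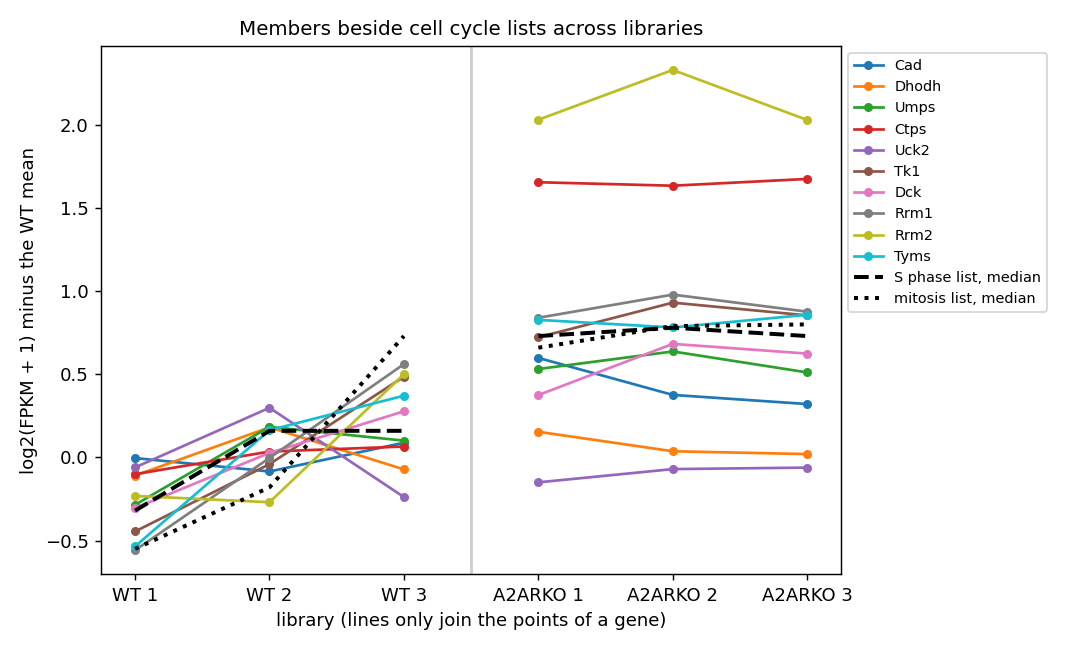
Level of each member in each library as log2(FPKM + 1) minus its WT mean (vertical axis), with the medians of the S phase list (dashed, 30 genes) and the mitosis list (dotted, 20 genes) on the same scale; lines join the points of 1 gene within a genotype and replicates have no order. Rrm1, Tyms and Tk1 lie near the dashed line in A2ARKO, Rrm2 and Ctps lie above it, and Dhodh and Uck2 stay near 0.

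By limma, 3.31% of all genes tested rose and 1.77% fell, and the counts of 8 lists are set beside these shares. Of 20 tested genes for other pyrimidine and deoxynucleotide enzymes (isoforms, nucleotide kinases and enzymes of the deoxynucleotide pool), 1 rose, 0 fell and 19 did not pass limma (median log2 fold change 0.15, against 0.002 over all genes tested). The one that rose was Nme1, a nucleoside diphosphate kinase, from 10.97 ± 0.468 FPKM to 15.0 ± 1.09 (SD, n = 3), a log2 difference of 0.42 with a limma adjusted p of 0.0491. It passed when WT replicate 1 was left out and not when any other library was.

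Of 6 tested genes of pyrimidine breakdown and nucleotidases, 0 passed limma and 2 had an unadjusted p below 0.05 (median 0.01), as did 2863 of the 11595 genes tested. These were the cytidine deaminase gene Cda, which read 1.11, 3.35 and 3.29 FPKM in WT and 5.59, 7.13 and 7.12 in A2ARKO (limma adjusted p = 0.083, 0.0282 without WT replicate 1, and up to 0.259 without another library), and the nucleotidase gene Nt5c2, which differed by -0.46 on the log2 scale (limma adjusted p = 0.144, 0.0286 without WT replicate 3, and up to 0.329 without another library). Of 5 tested nucleoside and nucleotide transporters, 0 passed limma, 0 had an unadjusted p below 0.05, and all 5 values lay between -0.31 and -0.11. Slc25a36 and the nucleoside transporter gene Slc29a1 had the smallest p, at -0.20 and -0.30 (limma adjusted p of 0.312 and 0.458).

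The folate cycle supplies the carbon unit that Tyms transfers. Of 17 tested genes 1 rose, 1 fell and 15 did not pass limma (median 0.07). The gene that fell was Aldh1l2, whose mitochondrial enzyme oxidizes formyl-tetrahydrofolate. It read 40.73, 34.43 and 35.79 FPKM in WT and 13.50, 11.26 and 11.25 in A2ARKO, or -1.55 on the log2 scale (standard error 0.11, limma adjusted p = 0.00372). It passed whichever library was left out (adjusted p of 0.00672 to 0.0369).

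Mthfd1, a cytosolic enzyme of the same cycle, rose from 17.0 ± 1.40 FPKM to 27.14 ± 0.739 (SD, n = 3), by 0.65 on the log2 scale (limma adjusted p = 0.019). The call was lost when WT replicate 2 or any A2ARKO library was left out, with limma adjusted p over the 6 fits from 0.0159 to 0.114.

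Of 16 tested genes for ribose phosphate, phosphoribosyl pyrophosphate, aspartate and glutamine supply, 4 rose, 0 fell and 12 did not pass limma (median 0.19). G6pdx, the entry enzyme of the pentose phosphate pathway, read 42.29, 35.32 and 38.18 FPKM in WT and 69.47, 68.08 and 65.05 in A2ARKO (log2 fold change 0.79, limma adjusted p = 0.0154). Pgd, a later enzyme of the same branch that the rule for named genes does not take, rose at 0.70 (limma adjusted p = 0.0171). The glutamine synthetase gene Glul rose at 0.80 and the phosphoglucomutase gene Pgm2 at 1.01 (limma adjusted p of 0.037 and 0.0494). G6pdx and Pgd did not pass without A2ARKO replicates 1, 2 or 3, Glul did not pass without these or WT replicate 2, and Pgm2 did not pass whichever library was left out.

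Of the 30 S phase genes 8 rose and 22 did not pass limma (median 0.65), and all 30 had a log2 fold change above 0, from 0.25 to 1.06. Cdc45, Mcm5 and Ccne1, which encode a part of the replicative helicase, another part of it and cyclin E1, rose at 1.06, 1.02 and 0.98 (limma adjusted p of 0.015, 0.0457 and 0.0242). Set beside these values, Rrm1, Tk1 and Tyms were at 0.90, 0.84 and 0.82, and Rrm2 and Ctps, which were selected for being higher, at 2.13 and 1.65. Of 20 mitosis genes 0 passed limma, with 13 at an unadjusted p below 0.05 (2863 of 11595 over all genes tested) and a median of 0.80. Cdk1 and Aurka had the smallest p, at 1.05 and 1.14 (limma adjusted p of 0.063 and 0.0943). Without WT replicate 3, which was high in these genes, 15 S phase and 17 mitosis genes rose, without WT replicate 2 the counts were 2 and 0, and without any 1 A2ARKO library they were 0 and 0.

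Among 14 tested factors of the E2F, retinoblastoma and MYC families, which control such genes, 1 rose and 13 did not pass limma (median 0.11). Tfdp1, the dimer partner of E2F proteins, rose from 29.9 ± 1.28 FPKM to 41.05 ± 1.15 (SD, n = 3), by 0.44 on the log2 scale (limma adjusted p = 0.0381), and it passed only when all 6 libraries or all but WT replicate 1 were used. Over these 8 lists, 15 of 128 tested genes rose and 1 fell, where 3.31% of all genes tested rose and 1.77% fell. Of the 15, 8 were S phase genes. When the libraries were rescaled to the same sum, which moves the median of all genes from 0.002 to -0.098, 0 genes of the 8 lists rose and 1 fell.

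**Figure D5:**
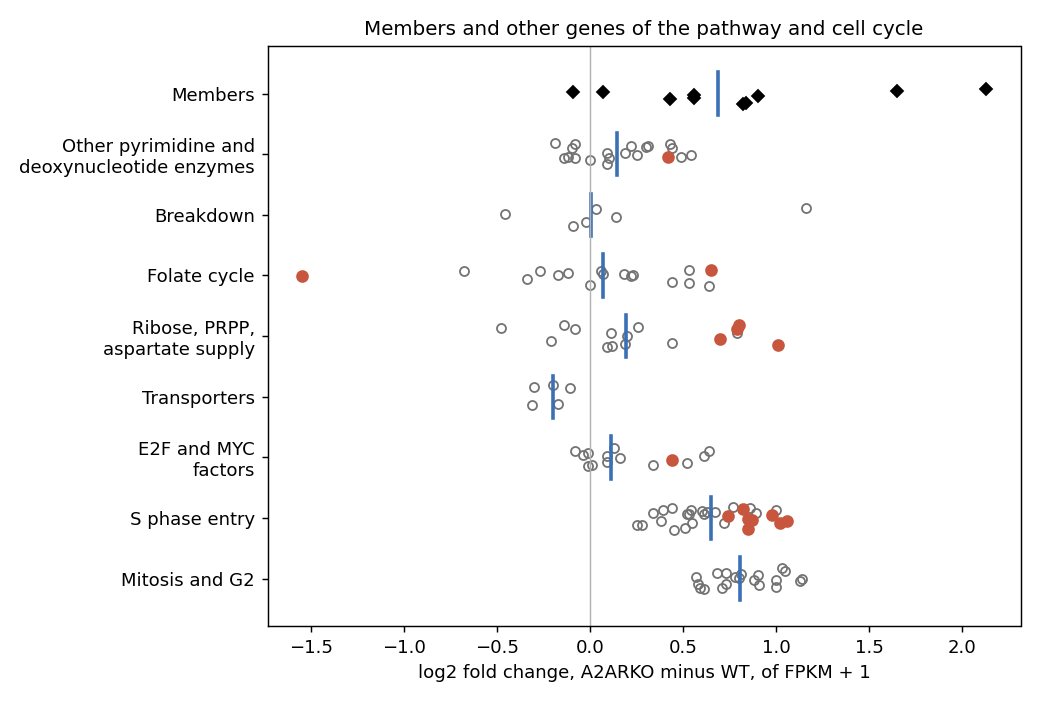
Log2 fold change of FPKM + 1 (A2ARKO minus WT, horizontal axis) of the 10 members (black diamonds, shown as a description) and of the tested genes of 8 other lists; filled red circles passed limma at an adjusted p below 0.05, open circles did not, and blue bars are medians. The S phase genes all lie above 0 (0.25 to 1.06), and Aldh1l2 stands alone at -1.55 in the folate cycle.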

How the data were processed

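The authors deposited 1 table of FPKM values for 47480 genes and 6 libraries, with 2 decimals. HTSeq and mm10 are named in the list of tools, per the submitters' processing notes. Not given in the sources used here are the aligner, versions, annotation, gene lengths and strand setting. Reads of overlapping genes therefore cannot be told apart, and levels of different genes compare only approximately. Genes with at least 1 FPKM in at least 3 libraries were tested (11595 genes) with limma 3.58.1 in R 4.3.3 (lmFit, eBayes with a trend) on log2(FPKM + 1) in a two-sided comparison with no replicate block and Benjamini-Hochberg adjustment over all genes tested and a threshold of 0.05. The fit was tested on simulated data with the same spread for every gene and both genotypes. Spreads that differ between the genotypes, as for most members here, were not simulated. P-values measure the spread between litter pools.

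The members and lists were chosen with earlier results of these data known. Named genes are the members, Adora2a, Rrm2b, Ctps2, Tk2 and, from each of 8 lists, up to 3 called genes of largest change, or the 2 with the smallest p if no gene passed; for Ctps and Rrm2 also the 3 tested genes, other than members and Gm or Rik names, with the most similar profile (smallest root mean square difference of centred log2 values). Depth came from the steps between low values of genes of at most 150 nt: 41.6 to 58.1 M reads (M for mega) per library, with 99.6% or more of values whole within 0.1 read. Reads behind a gene use GENCODE M21 exon lengths (GRCm38) and are approximate. Promoters come from RefSeq (GRCm38.p6). Alternatives were a pseudocount of 0.1, no filter, 2 other scalings, a replicate block and leaving out each library.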

Additional observations from a re-analysis of the deposited data

How the results depend on the processing

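The log2 fold change of Ctps lay between 1.54 and 1.69 and that of Rrm2 between 2.0 and 2.38 over 11 alternatives, while the number of genes past the threshold moved widely. With all genes above 0 kept (no filter), 143 genes were called higher and 70 lower against 384 and 205, 4 other pathway genes rose against 15, and Adora2a had a log2 fold change of -2.25 at a limma adjusted p of 0.0533. Rescaled to the same sum, 178 genes were called higher, 0 other pathway genes rose, and 4 neighbours in the A2ARKO order of levels overlapped. With a replicate block 1 gene was called higher and 1 lower, 0 other pathway genes rose, 0 fell, 0 members were below the threshold, and Adora2a did not pass (-2.25, limma adjusted p = 0.121). The labels do not say whether the numbers pair the litters. Same-numbered libraries had correlations of deviations of -0.52 to -0.33, and 0 of 6 libraries correlated best with its own number. These correlations do not decide it, because the deviations within a group depend on each other. With each library left out in turn, 39 to 568 genes were called higher and 11 to 362 lower, 0 to 37 other pathway genes rose and 1 to 2 fell, 1 to 4 members were below the threshold, and Adora2a lay between -2.6 and -1.99. The member counts are descriptions, since this contrast chose the members. Of the 10 named pathway genes called, 9 were lost without each of the A2ARKO libraries and when rescaled to the same sum. The fits with a library left out have fewer libraries, and the cause of the other changes was not tested. The FPKM values come with no stated counting error, and 3 litters per genotype limit all comparisons.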

Other observations

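The spread over the WT litters differed from member to member. The coefficient of variation over the 3 WT libraries was 40.5% for Tk1, 39.3% for Rrm1, 39.1% for Tyms, 33.5% for Rrm2, 24.1% for Dck, 20.6% for Uck2, 18.5% for Umps, 16.0% for Dhodh, 6.48% for Cad and 6.25% for Ctps. In A2ARKO it was 8.15%, 5.14%, 3.08%, 12.5%, 12.5%, 3.58%, 5.12%, 7.17%, 11% and 1.43% in the same order of genes, smaller than in WT for all but Cad. The median ratio of the highest to the lowest WT library was 1.56 over the 10 members, 1.67 over the 30 S phase genes and 2.61 over the 20 mitosis genes, against 1.12, 1.09 and 1.13 over the A2ARKO libraries. No test of these spreads was made, since 3 libraries per genotype describe them poorly.

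The genes whose profile over the 6 libraries was most like that of Ctps, by the root mean square difference of centred log2(FPKM + 1), were Serpina3i, Gypc and Bdkrb1 at 0.0968, 0.106 and 0.127. Gypc, a membrane skeleton glycoprotein gene, read 22.12, 21.25 and 22.35 FPKM in WT and 60.06, 64.29 and 67.60 in A2ARKO, the only one of the 3 above 5 FPKM. The genes most like Rrm2 were the prostaglandin transporter gene Slco2a1, Tinagl1 and Tmem176a at 0.137, 0.282 and 0.285. Slco2a1 read 2.28, 3.20 and 5.03 FPKM in WT and 18.04, 18.69 and 16.63 in A2ARKO, with its highest WT value in WT replicate 3, as for Rrm2. Because the profiles were centred and not scaled, a gene can only be close to Ctps or Rrm2 here if its difference between genotypes has a similar size.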
